A study of Mus musculus with 17 samples.

Results

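The mouse annotation holds 51 protein-coding genes, of 21887 in all, whose symbols run from Psma to Psmg followed by a number, which is how the subunits, activators and assembly factors of the proteasome are named. They were chosen by symbol alone. By class they are 8 alpha and 7 constitutive beta subunits of the 20S core and the 3 immunoproteasome beta subunits Psmb8, Psmb9 and Psmb10. Then come the thymus-specific beta subunit Psmb11 and, for the 19S cap, 6 ATPases and 14 genes named as non-ATPase subunits. There are also 5 activators, the inhibitor Psmf1 and 4 assembly chaperones. Classes follow the symbols, so the non-ATPase class also holds assembly factors, such as Psmd5 and Psmd10. The symbol rule also took in 2 genes that are not proteasome subunits by name, Psmc3ip and Psme3ip1, and they were kept apart.

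The proteasome is a barrel-shaped protease that degrades ubiquitin-tagged proteins: the 20S core cuts, and the 19S cap recognises, unfolds and feeds in the substrate. In cells exposed to inflammatory signals or interferon, Psmb8, Psmb9 and Psmb10 can take the places of the constitutive catalytic subunits Psmb5, Psmb6 and Psmb7, which changes the peptides offered to MHC class I molecules. Psme1 and Psme2 form the interferon-inducible PA28 activator of the same pathway, and macrophages are a cell type in which it is well known.

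RNA polymerase II was immunoprecipitated from bone marrow-derived macrophages (BMDMs), primary macrophages grown from mouse bone marrow. The cells were N4bp1 knockout (KO) or wild type (WT), and were treated with R837 (imiquimod, a Toll-like receptor 7 agonist) for 2, 4 or 6 h or left untreated. Each of the 8 groups had 2 libraries, so 12 libraries came from treated and 4 from untreated cells, and the labels name no other allele or agent. The labels do not say whether the libraries of a group came from separate cultures or animals, so every p-value below measures only the spread between libraries, which may be technical.

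The data are lists of peak summits, 8394 to 29760 per library, each summit with the authors' score on a −log10 scale. Every list was shortened to its 8394 best summits and ranked, rank 1 being the highest score. A gene's value is the rank of the best summit in its span extended by 1 kb on each side. Its rank score is log2 of the list length plus 1 over that rank, or 0 where no summit was there, so the scale runs to 13.04 and a difference of 1 is a factor of 2 in rank. Libraries without a summit in the shortened list all score 0, so differences among them below its end do not enter the p-values. Psmb8 in untreated WT libraries, at ranks 22067 and 9135 of the full lists, scored 0 in both. Psmd7 in KO at 6 h, at 16713 and 12830, also scored 0 in both. Ranks say where polymerase stood out within a list, not how much polymerase there was. Read depth is unknown from these files.

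Shortened lists of treated libraries touched 2693 to 5885 genes and those of untreated libraries 6430 to 6689, and the median change over all genes tested was −0.33. Replicate 2 of KO at 6 h stood apart in score, with a highest value of 564, against 233 to 320 in the other libraries. The codes in the peak names count up without a gap in 3 series, of untreated and 2 h libraries, of 4 h and of 6 h libraries, each with both genotypes, so the series and the time cannot be told apart at 4 h and 6 h. Of 10 macrophage marker genes, 7 to 9 had a summit in every list. B cell and fibroblast markers had none, T and NK cell and neutrophil markers 0 or 1 per list, and dendritic cell markers 1 or 2 of 4. N4bp1 itself had a summit in all 6 treated KO lists (ranks 541 to 1713), in all 6 treated WT lists (957 to 3475) and in none of the 4 untreated lists. Which part of the gene the knockout lacks is not given in the labels, so this checks no label.

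Promoter sequences of the genes on which the results turn are shown first. The windows run from 250 bases before to 50 bases after a listed gene start and come from RefSeq (GRCm38.p6). The best summits described below often lay outside these windows. Their median position from the nearest listed start was 243 bases for Psma6, −424 for Psmb8 and 54 for Psmb9. It was 1059 for Psmb10, 184.5 for Psme1 and −260 for Psme2. Capitals mark a match to a searched motif. The Psma6 window is the one at the downstream of its 2 listed starts (chr12:55398575-55398874, plus strand), and its capitals are a match to the kB motif. In the Psmb8 window (chr17:34197945-34198244, plus strand) they mark the gamma-activated motif TTCNNNGAA. In the Psmb9 window (chr17:34187281-34187580, minus strand) they mark CCAAT, and in the Psme1 window (chr14:55578244-55578543, plus strand) the interferon response motif, which is GAAA, any 2 bases and GAAA again. The Psmb10 window (chr8:105938343-105938642, minus strand) and the Psme2 window (chr14:55591052-55591351, minus strand), 1 of 2 that overlap, held none of the 5 motifs searched.
Psma6: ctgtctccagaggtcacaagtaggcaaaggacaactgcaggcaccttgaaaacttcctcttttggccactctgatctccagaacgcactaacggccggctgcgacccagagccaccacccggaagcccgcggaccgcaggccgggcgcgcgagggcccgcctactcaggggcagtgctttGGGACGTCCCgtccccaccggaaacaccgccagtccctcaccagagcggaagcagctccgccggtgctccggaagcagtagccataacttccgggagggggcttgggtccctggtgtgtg
Psmb8: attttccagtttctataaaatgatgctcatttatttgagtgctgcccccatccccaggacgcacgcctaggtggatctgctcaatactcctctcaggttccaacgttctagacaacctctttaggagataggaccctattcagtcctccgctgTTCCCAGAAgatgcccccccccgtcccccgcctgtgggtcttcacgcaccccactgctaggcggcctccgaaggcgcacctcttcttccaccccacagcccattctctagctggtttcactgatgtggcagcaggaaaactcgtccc
Psmb9: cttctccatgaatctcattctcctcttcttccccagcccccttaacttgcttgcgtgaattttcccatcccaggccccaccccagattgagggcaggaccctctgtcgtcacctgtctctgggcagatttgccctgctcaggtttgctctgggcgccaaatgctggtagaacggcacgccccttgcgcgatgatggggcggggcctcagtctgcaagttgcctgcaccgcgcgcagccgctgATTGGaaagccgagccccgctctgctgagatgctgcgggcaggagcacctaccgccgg
Psmb10: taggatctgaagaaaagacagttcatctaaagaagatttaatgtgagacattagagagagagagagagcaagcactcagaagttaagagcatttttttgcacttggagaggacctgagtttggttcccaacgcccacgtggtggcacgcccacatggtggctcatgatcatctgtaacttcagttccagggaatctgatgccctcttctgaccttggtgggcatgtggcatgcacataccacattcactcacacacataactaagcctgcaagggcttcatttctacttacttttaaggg
Psme1: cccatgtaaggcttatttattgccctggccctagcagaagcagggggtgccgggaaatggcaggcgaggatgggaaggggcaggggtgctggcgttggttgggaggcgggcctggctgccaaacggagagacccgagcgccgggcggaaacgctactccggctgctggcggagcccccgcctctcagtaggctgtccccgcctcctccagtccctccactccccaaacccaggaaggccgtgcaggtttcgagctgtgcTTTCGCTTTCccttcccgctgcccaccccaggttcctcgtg
Psme2: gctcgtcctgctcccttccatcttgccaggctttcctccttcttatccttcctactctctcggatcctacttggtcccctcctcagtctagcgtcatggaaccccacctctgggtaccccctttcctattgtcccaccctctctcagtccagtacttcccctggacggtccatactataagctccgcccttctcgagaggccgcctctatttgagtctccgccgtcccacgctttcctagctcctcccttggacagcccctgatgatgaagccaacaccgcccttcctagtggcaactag

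Both strands were searched in 21263 promoter windows, 47 of them from 43 proteasome genes. The interferon response motif was in 3.35% of all windows and in 5 of the 47, those of Psme1, Psmb3, Psmd4, Psmd9 and Psmg4. TTCNNNGAA was in 7.69% of all windows and in 3 of the 47, those of Psmb8, Psmd2 and Psmg1. The kB motif was in 9.25% of all and in 6 of the 47, among them 1 of the 2 Psma6 windows. The antioxidant response core TGACNNNGC was in 12.98% of all and in 6, and CCAAT was in 38.2% of all and in 16. A match describes the letters only.

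Proteasome genes were well represented among the best summits. Shortened lists of treated libraries had a summit at 14 to 38 of the 51 genes (median 30.5), and those of untreated libraries at 32 to 39 (median 37). As shares, this was 27.5% to 74.5% in treated and 62.7% to 76.5% in untreated libraries, beside 12.3% to 26.9% and 29.4% to 30.6% of all protein-coding genes. The lowest count came from replicate 2 of WT at 6 h, the library with the shortest list. Psmd5, Psma3, Psmc3ip and Psme2 had a summit in all 16 shortened lists, and Psma8, Psmb11 and Psme2b had none in any. The last 3 were therefore not among the 48 proteasome genes tested.

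The best summits lay at gene starts. Among proteasome genes with a listed start, the best summit was within 1 kb of it for 85% to 100% in treated libraries (median 92.3%) and for 92.9% to 100% in untreated libraries (median 95.3%). Over all genes tested the shares were 60.9% to 82.8% in treated libraries (median 77.0%) and 84.1% to 86.3% in untreated libraries (median 85.3%).

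**Figure D1:**
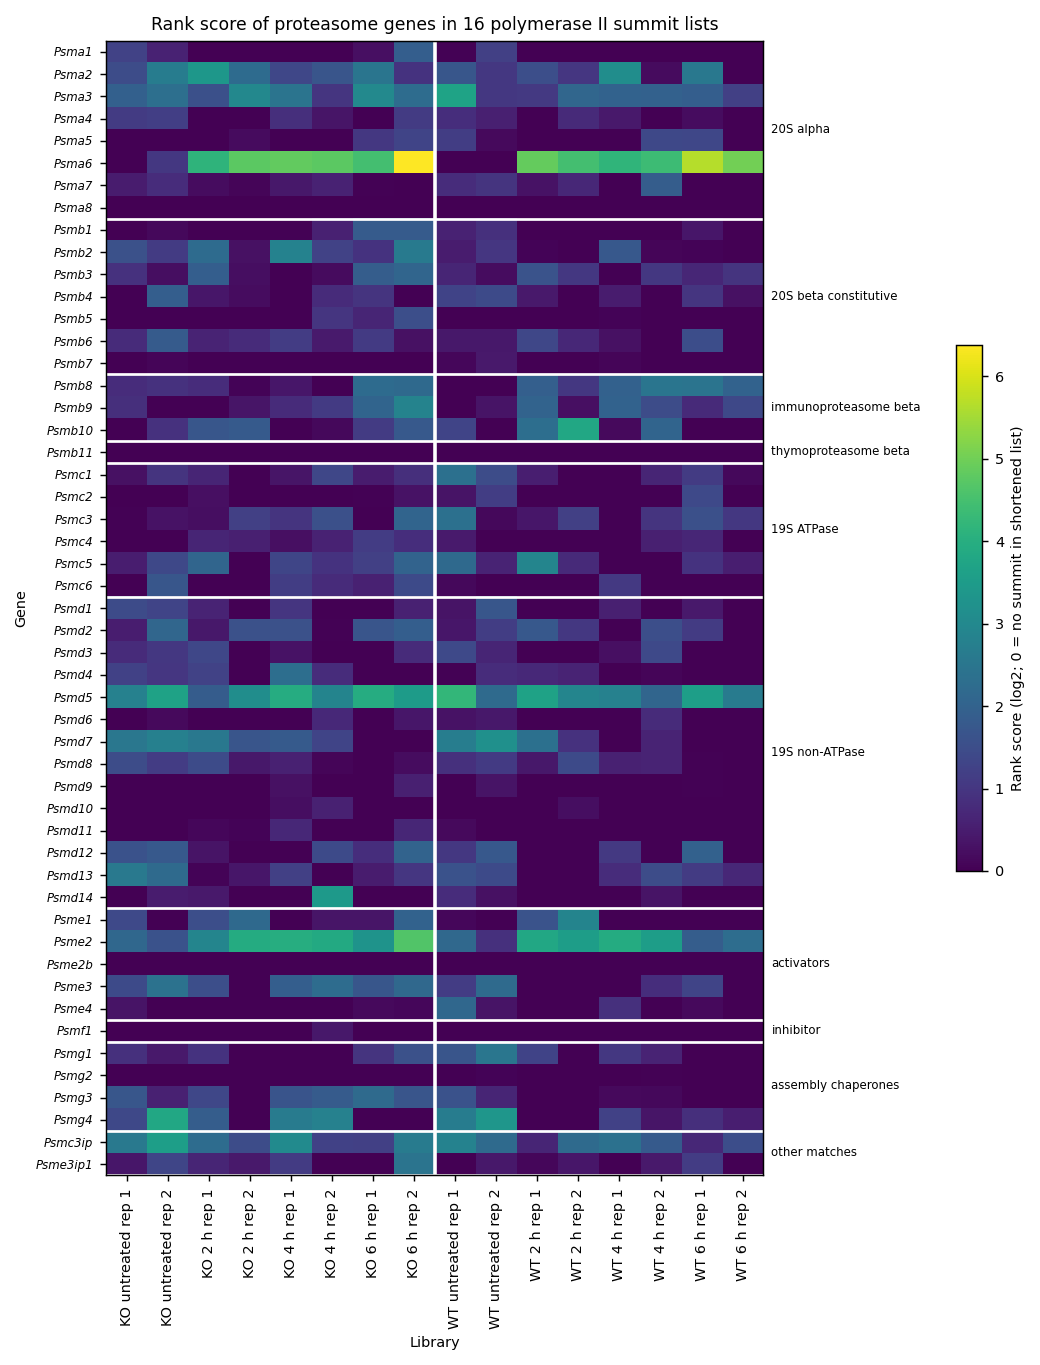
Rank score (log2, colour, 0 for no summit in the shortened list) of the 51 proteasome genes (rows, by class) in the 16 libraries (columns, KO left of the white line and WT right of it, by time within genotype). Psma6 is bright in all 12 treated libraries, while most other rows keep a low and uneven score in treated and untreated libraries alike.

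After R837, averaged over both genotypes and the 3 times, most proteasome genes did not pass the test and the few that did went both ways. Rank scores rose for Psma6, Psme2 and Psmb8, which is 3 of 48 (6.25%, beside 5.77% of the 8475 genes tested), and fell for Psmg4, Psmd7, Psmd13 and Psmd1, which is 4 of 48 (8.33%, beside 29.4%). The share that rose is close to that of all genes, and the share that fell is lower. The median change was −0.09 over the proteasome genes and −0.33 over all genes. By the number of summits per gene, 3 rose (7.16% of all genes did), again Psma6, Psme2 and Psmb8, and 4 fell (21.6% of all genes did): Psma1, Psmb7, Psmd1 and Psmd14. The 3 rises by rank score held whichever library was left out. Falls numbered 7 without WT untreated replicate 1 (27.8% of all genes tested fell), KO 2 h replicate 1 (29.4%) or KO 6 h replicate 2 (29.2%). Whichever library was left out, they included Psmg4, Psmd7 and Psmd13.

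**Figure D2:**
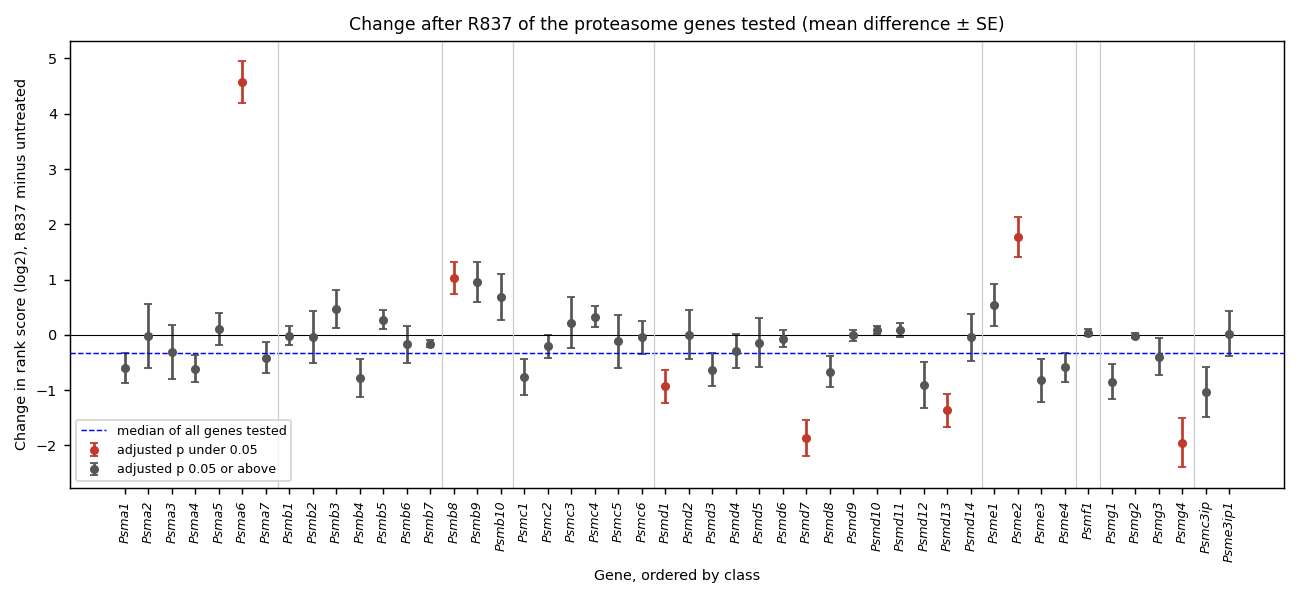
Change in rank score (log2, R837 minus untreated, both genotypes; points are mean differences and bars are ± 1 SE from the limma fit) of the 48 proteasome genes tested, ordered by class, with the median of all genes as a dashed line. Psma6 stands at 4.57, the other points lie between −1.95 and 1.77, and 7 points are past the threshold (red).

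In most treated libraries the immunoproteasome genes had higher scores than the rest of the proteasome, and their best ranks came at different times. The median score of Psmb8, Psmb9 and Psmb10 was 0.14 to 2.19 in treated libraries (median 1.21) and 0 to 0.90 in untreated libraries (median 0.40). The median of the other 48 genes was 0 to 0.89 in treated libraries (median 0.15) and 0.50 to 0.89 in untreated libraries (median 0.64). The 3 genes were above the rest in every treated library but those of KO at 4 h (0.37 and 0.14, against 0.39 and 0.58 for the rest). In untreated libraries they were above the rest in KO (0.81 and 0.90, against 0.50 and 0.89) and below it in WT (0, against 0.63 and 0.65). By means in place of medians, the 3 genes were below the rest in untreated KO libraries as well (0.56 and 0.61, against 0.79 and 1.04) and in KO 2 h replicate 1 (0.84, against 0.87). These are descriptions over chosen genes and carry no test.

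Psmb8, which replaces the chymotrypsin-like subunit Psmb5, was ranked 4793 and 4497 in untreated KO libraries, 4783 and 8025 at 2 h, 6476 and not at all at 4 h, and 1798 and 1841 at 6 h. In WT libraries it had no summit in the 2 untreated shortened lists, and after R837 it had ranks 2214 and 4086 (2 h), 2128 and 1502 (4 h), then 1536 and 2081 (6 h). All 6 treated WT libraries were above both untreated WT libraries. In KO both 6 h libraries were above the untreated ones, both 4 h libraries were below them, and the 2 h libraries overlapped them. Over both genotypes its score rose by 1.04 ± 0.29 (SE, 12 treated and 4 untreated libraries, limma adjusted p = 0.0144). By group it rose in WT at 4 h (2.23 ± 0.50, adjusted p = 0.0103), and by the same amount 2 h later (adjusted p = 0.00905). The first of these calls was lost without WT 4 h replicate 2 (1.98, adjusted p = 0.0666) and the second without WT 6 h replicate 1 (2.01, adjusted p = 0.0573). In KO the changes were −0.42 at 2 h, −0.67 at 4 h and 1.35 at 6 h (adjusted p = 0.664, 0.438 and 0.0871). The difference between the KO and WT responses was −1.89 ± 0.58 and did not pass (unadjusted p = 0.0062, limma adjusted p = 0.198), nor did KO against WT at 4 h (−2.04 ± 0.50, adjusted p = 0.147).

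The best Psmb8 summit lay from 521 bases before to 318 bases after the listed start. In 9 of 13 lists it also fell in the extended region of Tap1, the peptide transporter gene next door, so the value of Psmb8 cannot be told from that of Tap1 there. With summits counted only inside the gene span the change was 0.16 and the call was lost (adjusted p = 0.735), as were the WT calls at 4 and 6 h, and with the lists as deposited it was 0.90 (adjusted p = 0.0901).

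Psmb9, which replaces Psmb6 and faces Tap1 across a shared promoter region, was ranked in KO libraries at 4600 and none (untreated), none and 6511 (2 h), 4832 and 3951 (4 h), then 2017 and 1172 (6 h). In WT libraries the ranks were none and 6662 (untreated), 2046 and 6946 (2 h), 2108 and 3008 (4 h), then 4960 and 3220 (6 h). The KO libraries at 6 h had its best ranks, and treated and untreated libraries overlapped. The change over both genotypes was 0.96 ± 0.36 and missed the threshold (limma adjusted p = 0.0536). Without WT 2 h replicate 2 or KO 6 h replicate 1 it passed (adjusted p = 0.0194 and 0.0486). It rose in KO at 6 h (2.01 ± 0.62, adjusted p = 0.0423), a call kept with 5 of the 16 libraries left out in turn (adjusted p up to 0.206, without KO untreated replicate 2). Its best summit was inside the Tap1 region in 13 of 13 lists. Tap1 rose by 1.31 ± 0.35 (adjusted p = 0.0116), and in every list in which Tap1 had a summit its best one was also the best of Psmb8 or Psmb9.

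Psmb10, which replaces Psmb7, was ranked 2574 and 2417 in KO and 1707 and 590 in WT at 2 h, its best ranks within WT. Untreated libraries had 1 summit in each genotype, at 4432 in KO and 3362 in WT. At 4 h the ranks were none and 7626 in KO and 7493 and 2003 in WT, and at 6 h 3865 and 2446 in KO and none in both WT lists. It rose at 2 h over both genotypes (1.85 ± 0.51, limma adjusted p = 0.0172) and in WT at 2 h (2.40 ± 0.72, adjusted p = 0.0391). With each library left out in turn, the first call was lost for 4 of 16 (WT untreated replicate 2, KO untreated replicate 1 and replicate 2 of either genotype at 2 h; adjusted p up to 0.0769) and the second for 12 (adjusted p up to 0.283, without WT 2 h replicate 2). In WT libraries at 6 h its score was 0, and over all times the change was 0.68 ± 0.42 (adjusted p = 0.222), or 0.35 to 1.011 with 1 library left out. With the lists as deposited, both 2 h calls were lost (1.04, adjusted p = 0.169, and 1.73, adjusted p = 0.132). Its best summit lay up to 1183 bases after the listed start and within 1 kb of it in 4 of 11 lists, so most lay beyond the window printed above. No other gene shared it.

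The constitutive catalytic subunits did not pass in the comparison over both genotypes. Psmb5 had no summit in any untreated shortened list and 4 in treated ones, at ranks 4239 in KO at 4 h, 5331 and 2888 in KO at 6 h and 8039 in WT at 4 h (change 0.27 ± 0.17, limma adjusted p = 0.242). It rose in KO at 6 h (1.10 ± 0.30, adjusted p = 0.0245), a call lost without KO 6 h replicate 2 (0.66, adjusted p = 0.189) and without either untreated KO library. Psmb5 met the filter of a summit in 2 or more lists through treated lists alone. Without that filter its call in KO at 6 h was lost (limma adjusted p = 0.108). Psmb6 was ranked in 10 treated lists (2956 to 6921) and all 4 untreated lists (2378 to 6307), with a change of −0.17 ± 0.34 (adjusted p = 0.714). Psmb7 was ranked in 1 treated list (7929) and 3 untreated lists (6171 to 7855), with a change of −0.16 ± 0.06 (adjusted p = 0.0627). It passed as lower without WT untreated replicate 1 (−0.24, adjusted p = 5.49e-04) or KO untreated replicate 1 (−0.18, adjusted p = 0.0422), with the lists as deposited (−0.9998, adjusted p = 0.00316) and without extension of the gene span (−0.17, adjusted p = 0.0458). Over all left-out libraries its change ran from −0.24 to −0.0785. Psmb7 sat near the end of the lists in which it appeared, and the Psmb6 ranks of treated and untreated libraries overlapped.

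**Figure D3:**
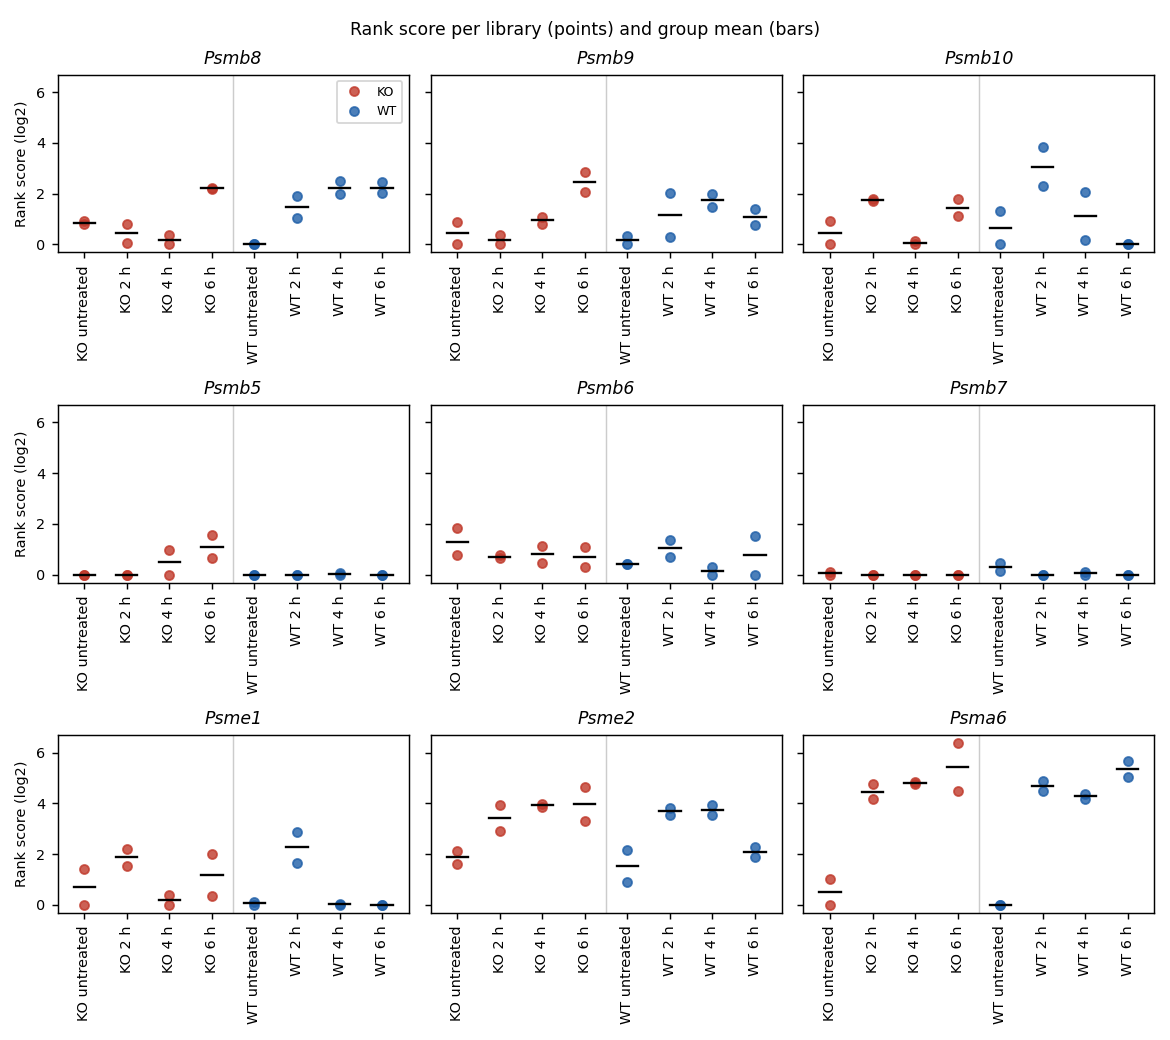
Rank score (log2) of the immunoproteasome genes, their constitutive counterparts, the PA28 genes and Psma6; each point is a library, each bar the mean of the 2 libraries of a group, KO (red) left of WT (blue). Psma6 lies above 4 in every treated library, Psmb8 lies near 2 in WT at 4 and 6 h and in KO at 6 h, and Psmb7 stays below 1 throughout.

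Psma6, an alpha ring subunit of the 20S core, changed more than any other proteasome gene in this comparison. In treated KO libraries it stood at ranks 473 and 309 (2 h), 290 and 308 (4 h), then 380 and 101 (6 h). Treated WT libraries had it at 288 and 377 (2 h), 469 and 403 (4 h), then 165 and 257 (6 h). Among untreated libraries it had 1 summit in the shortened lists, at rank 4126 in KO replicate 2. All 12 treated libraries were above all 4 untreated ones, and replicate 2 of KO at 6 h was highest. The score rose by 4.57 ± 0.38 (SE, limma adjusted p = 2.28e-06). It rose at every time in both genotypes, by 3.94, 4.30 and 4.91 in KO and by 4.67, 4.27 and 5.35 in WT at 2, 4 and 6 h (adjusted p from 2.65e-04 to 0.00201), and the difference between the KO and WT responses did not pass (−0.38 ± 0.76, adjusted p = 0.898). The 6 changes share their untreated libraries within a genotype.

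Psma6 spans 55384222 to 55418459 on chromosome 12 and has 2 listed starts, 14603 bases apart. No deposited list had a summit within 1 kb of the upstream start. All 16 deposited lists had one within 1 kb of the downstream start at 55398825, whose window is printed above. In untreated libraries this was the only summit in the region, at ranks 8924 and 4126 in KO and 15770 and 8492 in WT of the full lists. In treated libraries the full lists held 8 to 21 summits over the region. The best one in shortened lists lay between 210 bases before and 808 bases after the downstream start (median 243 after). Nearly all other summits in treated libraries lay elsewhere, along the gene body, between the 2 starts or, for some, within 1 kb past the gene end. The best of these in each full list ranked 821 to 8446. In the treated lists summits thus stood at the downstream start and along the length of the gene, and no best summit was shared with another protein-coding gene. The number of summits also rose (log2 change 2.75 ± 0.41, limma adjusted p = 0.00108). By group that measure passed in WT at 2, 4 and 6 h (limma adjusted p = 0.0191, 0.0148 and 0.0197). It did not pass in KO at 2, 4 or 6 h (limma adjusted p = 0.174, 0.0510 and 0.0525). The annotated span of Nfkbia, which encodes an inhibitor of NF-kB, lies 70950 bases beyond that of Psma6.

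**Figure D4:**
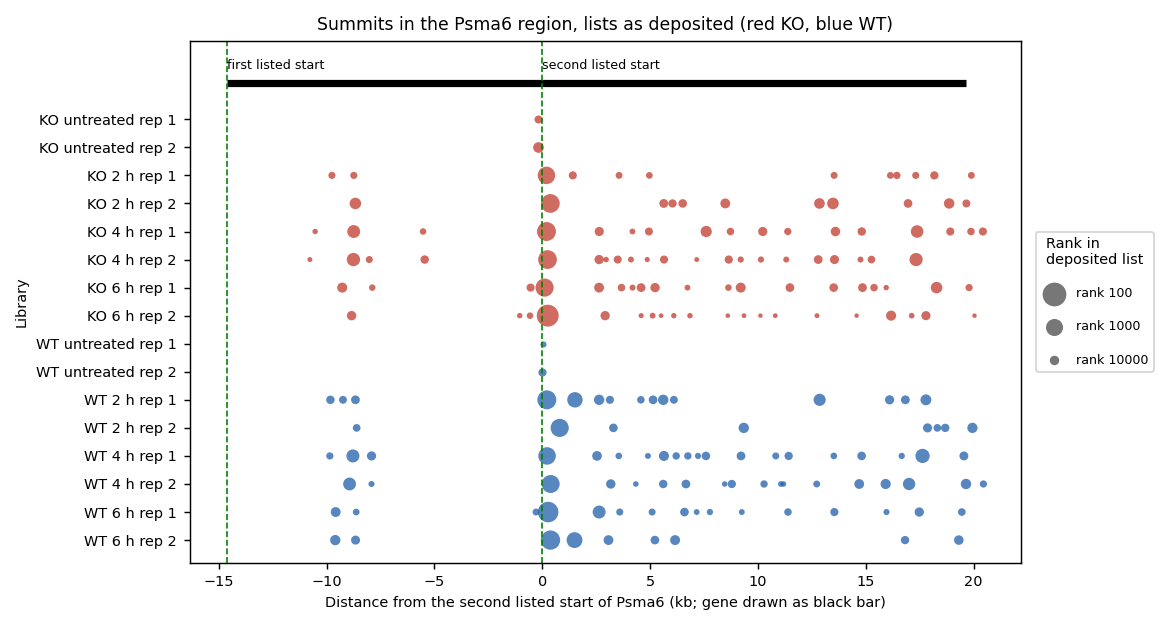
Summits of the full deposited lists in the Psma6 region by distance from the downstream listed start (kb); rows are libraries (KO red, WT blue), larger points have better ranks, dashed lines mark the 2 listed starts and the black bar the gene. Untreated libraries have 1 small point at the downstream start, and treated libraries a large point there and smaller ones along the gene.

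Of the activators, Psme2 rose, while the 2 h calls of Psme1 rested, in 3 of the 4 libraries at that time, on a summit past the gene's far end. Psme2, the beta chain of PA28, had a summit in every list. KO libraries had it at ranks 1913 and 2735 (untreated), 1130 and 551 (2 h), 535 and 573 (4 h), then 862 and 337 (6 h). WT libraries had it at 1878 and 4550 (untreated), 596 and 719 (2 h), 553 and 722 (4 h), then 2263 and 1727 (6 h). Treated KO libraries were all above the untreated ones, and WT libraries at 6 h overlapped the untreated ones. The score rose by 1.77 ± 0.37 (SE, limma adjusted p = 0.00247). By group it rose in WT at 2 h (2.16, adjusted p = 0.0354) and 4 h (2.21, adjusted p = 0.0344) and in KO at 6 h (2.09, adjusted p = 0.0407), with 0.56 in WT at 6 h. Both WT calls were lost without WT untreated replicate 2 (adjusted p = 0.174 and 0.172) or without either treated library of the group, and the KO call was lost for 9 of 16 left-out libraries (adjusted p up to 0.226, reached without KO 6 h replicate 2). Over both genotypes it was called in all 16 cases. Its best summit was shared with Rnf31, which encodes a subunit of the linear ubiquitin ligase, in 13 of 16 lists. Rnf31 had a better rank than Psme2 in every list but that of KO 2 h replicate 2, and did not pass (0.15 ± 0.40, adjusted p = 0.800). With the gene span not extended, the Psme2 change was 1.06 (adjusted p = 0.0506), and the calls in WT at 4 h (0.58, adjusted p = 0.654) and in KO at 6 h (adjusted p = 1) were lost.

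Psme1, the alpha chain of PA28, had ranks 2879 and 1849 in KO and 2715 and 1136 in WT at 2 h. Untreated libraries had 1 summit in each genotype, at 3166 in KO and 7712 in WT. At 4 and 6 h the ranks were none, 6505, 6528 and 2084 in KO, and 8255 and otherwise none in WT. It rose at 2 h over both genotypes (1.68 ± 0.46, limma adjusted p = 0.0164) and in WT at 2 h (2.20 ± 0.65, adjusted p = 0.0365). The first call was lost without KO untreated replicate 2 or replicate 2 of either genotype at 2 h (adjusted p up to 0.0656) and the second for 7 of 16 left-out libraries (adjusted p up to 0.244, without WT 2 h replicate 2). Its best summit was shared with Emc9 in 3 of 10 lists, those of both KO libraries and WT replicate 2 at 2 h, where it lay 656 to 682 bases past the end of Psme1. In the other 7 lists it lay near the listed start. Without extension of the gene span both 2 h calls were lost (0.31, adjusted p = 0.666, and 0.82, adjusted p = 0.449). Over all times the change was 0.53 ± 0.38 (adjusted p = 0.286), or 0.18 to 0.89 with 1 library left out. Among the other activators, Psme3, which forms a nuclear activator ring, fell at 2 h over both genotypes (−1.41 ± 0.48, adjusted p = 0.0412, lost for 9 of 16 left-out libraries and, at −0.60, without extension), and Psme4 did not pass.

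The 2 h and untreated libraries belong to 1 series of library codes. For 2 h against untreated over both genotypes, in the fit of all 16 libraries, Psma6, Psme2, Psmb10 and Psme1 rose. This is 4 of 48 (8.33%, beside 4.84% of all genes tested). Psmg4, Psmd13, Psmd12, Psme3 and Psmd1 fell, which is 5 of 48 (10.4%, beside 24.1%). The calls of Psma6, Psme2, Psmg4 and Psmd13 held whichever library was left out, and those of Psmd1 and Psmd12 were lost for 12 of the 16. Without extension of the gene span, limma no longer called Psme1, Psmd13, Psmd12, Psme3 and Psmd1 at 2 h. Fitted on the 2 h and untreated groups alone, limma kept the calls of Psma6, Psme2, Psmd13 and Psmd12. It lost those of Psmb10 (adjusted p = 0.0575), Psme1 (0.0594), Psmg4 (0.0693), Psme3 (0.102) and Psmd1 (0.105). With the lists as deposited, the rises of Psme2 (limma adjusted p = 0.180), Psmb10 (0.169) and Psme1 (0.157) were lost, and the 5 falls were kept.

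Of the 19S cap, none of the 6 ATPases and 3 of the 14 genes of the non-ATPase class passed, all 3 lower. Of all genes tested, 29.4% fell. The median change was −0.08 for the ATPases and −0.22 for the non-ATPase class, beside −0.33 over all genes. Psmd7, a lid subunit that pairs with the deubiquitinase Psmd14, had ranks 1424, 2613, 2384 and 3369 in KO at 2 and 4 h and none at 6 h, and 1639, 4464, none, 5412, none and none in WT at 2, 4 and 6 h, against 1453 and 1227 in untreated KO and 1279 and 911 in untreated WT libraries. Apart from KO replicate 1 at 2 h, every treated library was below every untreated one. It fell by 1.87 on the log2 scale (SE 0.33, limma adjusted p = 8.30e-04). By group the falls were in WT at 4 h (−2.64) and 6 h (−2.96) and in KO at 6 h (−2.65), with adjusted p from 0.00432 to 0.00849. When each gene counted once in the ranking, limma called none of these 3 group falls. They were then −1.28 in WT at 4 h (adjusted p = 0.0651) and 6 h (0.0598) and −0.99 in KO at 6 h (0.143). Fits of the compared groups alone lost them too (limma adjusted p from 0.0982 to 0.120). The 6 h falls held whichever library was left out, and the 4 h fall was lost without WT 4 h replicate 1 (−2.33, adjusted p = 0.0701).

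Psmd13, another lid subunit, had ranks 2987 to 8055 in the 9 treated lists in which it appeared and 1395 to 3100 in the 4 untreated lists. It fell by 1.36 (SE 0.30, limma adjusted p = 0.00358), and by group in KO at 2, 4 and 6 h (−2.18, −1.80 and −1.66), calls that were lost for 2, 5 and 9 of the 16 left-out libraries (adjusted p up to 0.0759, 0.231 and 0.149). Its best summit was in the Sirt3 region in 13 of 13 lists, and Sirt3 had the same change. When a summit counted for the nearest gene end alone its change was 0.08, and without extension of the gene span it was 0.02, so its direction turned with the rule that assigns shared summits. Psmd1, the large scaffold subunit of the cap base, appeared in 5 treated lists (4221 to 6153) and in all 4 untreated lists (2560 to 6600). It fell by 0.93 (SE 0.29, adjusted p = 0.0251). Without WT untreated replicate 2 its change was −0.59 (adjusted p = 0.130), and the call was also lost without KO untreated replicate 1 (adjusted p = 0.0775) or replicate 2 (adjusted p = 0.0627).

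Of the 4 assembly chaperones with Psmg symbols, 1 passed. Psmg4, which pairs with Psmg3 in building the alpha ring, had ranks 2278, none, 1329, 1201, 8382 and none in KO at 2, 4 and 6 h, and none, none, 3589, 6534, 4624 and 5825 in WT, against 3215 and 588 in untreated KO and 1322 and 823 in untreated WT libraries. Treated WT libraries were all below untreated ones, and KO libraries overlapped. It fell by 1.95 (SE 0.45, limma adjusted p = 0.00458), and by group in WT at 2 h (−3.01) and in KO at 6 h (−2.61). The WT call was lost without WT untreated replicate 2 (adjusted p = 0.113) or either WT 2 h library, and the KO call for 9 of 16 left-out libraries (adjusted p up to 0.283, without KO untreated replicate 2). Psmg1 fell in WT at 6 h (−2.09 ± 0.55, adjusted p = 0.0207), lost without the same untreated library (adjusted p = 0.105) or either WT 6 h library.

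Shortened lists of treated libraries touched fewer genes than untreated ones, and that moves with these falls. When each gene counted once in the ranking, the median change of all genes was 0.04 and 12% of genes fell. On that scale, over both genotypes, Psmd7 alone of the proteasome genes fell, and Psma6, Psme2 and Psmb8 still rose. Psmg4 was at −0.87 (limma adjusted p = 0.0815), Psmd13 at −0.31 (adjusted p = 0.0579) and Psmd1 was not among the genes tested. The part of list composition in the falls was not tested beyond this.

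The highest scores in untreated libraries were those of Psmd5, Psmg4, Psmd7, Psmc3ip and Psma3, with medians of 3.24, 3.01, 2.74, 2.70 and 2.14. Psmd5, an assembly factor of the cap base, was ranked 540 to 2319 in treated and 447 to 1821 in untreated libraries (change −0.15 ± 0.44, limma adjusted p = 0.816). Psma3, an alpha subunit, was ranked 1055 to 4241 in treated and 643 to 4073 in untreated libraries (change −0.30 ± 0.49, adjusted p = 0.652). Its best summit stood near its listed start in 10 lists and at −5738 to −6105 bases relative to it, outside the window of the start, in the other 6, which were those of WT at 4 h, WT at 6 h and KO at 6 h. Both genes stayed in all lists with overlapping groups. Psmc3ip, which acts in meiotic recombination, was ranked 1009 to 5307 in treated and 709 to 1811 in untreated libraries (change −1.03 ± 0.45, adjusted p = 0.0898), always at a summit shared with Retreg3. The change of Psme3ip1 was 0.02 ± 0.41 (adjusted p = 0.970).

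Counted by genotype and time in either direction, proteasome genes passed in the following numbers of 48. In KO they were 2 at 2 h (12.4% of all genes tested passed), 3 at 4 h (13%) and 8 at 6 h (16.1%). In WT they were 5 at 2 h (16.4%), 4 at 4 h (14.5%) and 4 at 6 h (17.1%). As shares this is 4.17%, 6.25% and 16.7% in KO and 10.4%, 8.33% and 8.33% in WT, so the counts were at or below the background apart from a slightly larger share in KO at 6 h. The 8 in KO at 6 h were Psma6, Psmb1, Psmb5, Psmb9 and Psme2, which rose, and Psmd7, Psmd13 and Psmg4, which fell, beside 5.12% and 11% of all genes tested. Psmd10, a cap assembly factor, rose in KO at 4 h by 0.41 ± 0.12 (limma adjusted p = 0.0446), at a summit shared with Atg4a. This call was lost for 9 of 16 left-out libraries. Psmd10 had ranks 7153 and 5600 in KO at 4 h, 7130 in WT 2 h replicate 2 and none elsewhere. It thus met the filter of a summit in 2 or more lists through the group in which it was called. Without that filter the call was lost (limma adjusted p = 0.547). Without KO 6 h replicate 2, the library that stood apart, 3 passed in KO at 6 h: Psma6, Psmb1 and Psmd7. The same 3 passed without KO untreated replicate 2. Over all left-out libraries the counts ran from 1 to 3 at 2 h, 1 to 5 at 4 h and 3 to 8 at 6 h in KO, and from 1 to 6, 2 to 5 and 2 to 5 in WT. The shares over all genes are not given for these left-out counts, and each such fit left 1 library in a group. Psma6 was the 1 gene that passed in all 6 groups, and it did so whichever library was left out. When only the 4 libraries of a comparison were fitted, limma called 0 in each group, Psma6 included, with 7 to 13 genes in KO and 7 to 11 in WT at an unadjusted p under 0.05.

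Between KO and WT, 1 proteasome gene passed in 1 comparison by rank score. Psmb1, a beta ring subunit without a catalytic site, was ranked 2376 and 2373 in KO at 6 h, against 6423 and none in WT at 6 h. In KO it had no rank and 7666 untreated, none at 2 h and 8185 and 5635 at 4 h, and in WT 5509 and 4574 untreated and none at 2 and 4 h. The KO libraries at 6 h were thus above all others. The score was higher in KO at 6 h by 1.63 ± 0.29 (limma adjusted p = 0.0162), where 1.13% of all genes tested were higher. It no longer passed without WT 6 h replicate 2 (1.44, adjusted p = 0.115), with the gene span extended by 3 kb (adjusted p = 0.179), without the filter on genes (adjusted p = 0.0572) and in a fit of the compared groups alone (adjusted p = 0.711). By number of summits the difference was 0.50 (adjusted p = 0.559). The rank score difference was 1.63 without KO 6 h replicate 2. Other genes were called in some comparison of KO with WT when a library was left out. They were Psmd10, Psmd14 and Psmf1 without KO 4 h replicate 1, and Psma1, Psmb5 and Psme2 without KO 6 h replicate 1. The others were Psmb7 and Psme4 without WT untreated replicate 1 and 2 in turn, Psmg3 without KO 2 h replicate 2 and Psmb5 without KO 4 h replicate 2. Each of these fits left 1 library in a group, and the shares over all genes are not given.

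In the other comparisons of KO with WT, limma called none of the 48 proteasome genes by rank score. At an unadjusted p under 0.05 there were 5 in untreated cells (all lower in KO), 0 at 2 h, 7 at 4 h (6 higher in KO), 7 at 6 h with Psmb1 (all higher in KO), 7 over the treated times and 4 in the difference between responses. The unadjusted share over all genes is not given, so these counts have no background here. At 6 h the median difference of all genes was itself 0.13. Shortened lists at 6 h touched 4724 and 5885 genes in KO and 4386 and 2693 in WT. At the adjusted threshold, calls over all genes were 1.37% untreated, 0.0708% at 2 h, 0.401% at 4 h and 1.32% at 6 h. They were 0.743% over the treated times and 0.932% for the difference between responses. By number of summits, Psma1 was called higher in KO at 6 h, where it had 1 summit in each KO list and none in either WT list (1.94% of all genes tested passed). On that measure Psma1 was also called higher in KO over the treated times and in the difference between responses. The shares over all genes are not given for these further calls.

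Most genes that work with the proteasome did not pass either. Of 13 genes of MHC class I antigen processing, B2m (1.20 ± 0.40, limma adjusted p = 0.0346) and Tap1 rose, while Calr (−1.73), Canx (−1.58) and H2-K1 (−1.04) fell and 8 did not pass, where 5.77% of all genes tested rose and 29.4% fell. B2m encodes the light chain of MHC class I, and Calr and Canx encode chaperones of its folding. Of 19 partners and regulators of the proteasome, 17 were tested, none rose and 6 fell, beside the same 29.4%. Among them were the ubiquitin gene Ubb (−1.49), the shuttle factor gene Ubqln1 (−1.19), the protease gene Ddi2 (−0.95) and Akirin2 (−0.57), which serves nuclear import of proteasomes. Nfe2l1, which encodes the transcription factor that drives proteasome genes when the proteasome is inhibited, was at −0.18 ± 0.38 (adjusted p = 0.744).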

How the data were processed

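RNA polymerase II ChIP-seq libraries (75 nt single-end reads, NextSeq 500, per the labels' protocols) were mapped and called with GSNAP and MACS2 on GRCm38, per the submitters' processing notes. Versions, call threshold, control and depth scaling are not given in the sources used here, and 1 input sample was not analysed here. Each deposited file lists the 1-base peak summits of 1 library, with the authors' score on the −log10 scale of MACS2. Whether a p-value or a q-value lies behind it is not given there, and it served here for ranking inside each list alone.

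Lists were shortened to 8394 summits. The 8475 of 21887 protein-coding genes that had a summit in 2 or more shortened lists were tested with limma 3.58.1 in R 4.3.3: 1 mean per group, variance trend, empirical Bayes and Benjamini-Hochberg adjustment over all genes tested, threshold 0.05. One fit held all 16 libraries. The second measure was log2 of 1 plus the number of summits. Gene spans, starts and promoters came from RefSeq (GRCm38.p6), and coordinates are on that build. The fit was tested on simulated data with changes placed only in genes of high mean score. Most proteasome genes scored lower, so that test does not cover them.

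Members and gene lists were chosen with earlier results of these data known. Genes named with values were the immunoproteasome genes, their constitutive counterparts, Psme1, Psme2, the genes past the threshold over both genotypes (at most 10 each way) or in KO against WT, the 5 highest in untreated libraries and the 2 symbol matches by name. Other genes called in single groups, or by number of summits, were named after their values were seen.

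Alternatives covered list length, gene region, filter, fit and each library left out. Some genes of the list of partners are counted but not reported by name here.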

Additional observations from a re-analysis of the deposited data

How the results depend on the processing

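Over both genotypes, 3 proteasome genes rose and 4 fell, and by group 2, 3 and 8 passed in KO and 5, 4 and 4 in WT at 2, 4 and 6 h. Over both genotypes, Psma6 was called under every alternative that was run. The number of rises moved by over 1.5 times only without extension of the gene span (1 of 46 tested, beside 5.43% of all genes tested). Falls numbered 1 of 34 tested with 1 rank per gene, where 12% of all genes tested fell. They numbered 18 of 48 with the lists as deposited (beside 49.1%) and 7 of 36 with the 4000 best summits (beside 23%). The counts by group and in KO against WT that follow are given without the shares over all genes. With 1 rank per gene, 4 passed in KO at 6 h and 3, 2 and 2 in WT at 2, 4 and 6 h. With the lists as deposited, whose lengths differ between groups, 5 passed in KO at 2 h, 18 in WT at 2 h, 13 in WT at 6 h and 7 in KO against WT. Without extension, 1 passed in KO at 2 h, 2 in WT at 4 h and 2 in KO against WT. With a 3 kb extension limma called 0 in KO against WT (17 at an unadjusted p under 0.05), and with summits given to the nearest gene end 1 in KO at 2 h. With no filter, 1 passed in KO at 4 h, 4 in KO at 6 h and 0 in KO against WT (21 unadjusted); with no variance trend, 8 in WT at 2 h and 2 in KO against WT. A fit of the compared groups alone, with 2 libraries each, called 0 in each group (7, 8 and 13 unadjusted in KO, 11, 7 and 9 in WT) and 0 in KO against WT (12 unadjusted). By number of summits 1 passed in KO at 6 h. The cause of these moves was not tested.

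Replicate numbers did not pair the libraries: over 28 pairs of groups, deviations of same-numbered libraries correlated at −0.11 to 0.18 (median 0.0076), 1 of them over 0.1. A fit with the replicate block called 5 genes in KO at 6 h and 2 at 4 h, with 3 rises and 4 falls over both genotypes. With each library left out in turn, rises numbered 3 to 4, where 4.65% to 7.13% of all genes tested rose. Falls numbered 3 to 7, where 25.1% to 29.4% of all genes tested fell. Calls by group and in KO against WT also moved, in fits that left 1 library in a group.

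Some changes turned sign: Psmb6 (0.0574), Psmb1 (0.0691), Psmd5 (0.25) and Psma3 (0.0815) with 1 rank per gene; Psmb1 (0.13) with the 4000 best summits; Psme3ip1 with the lists as deposited (−0.53), without extension (−0.23) and by number of summits (−0.0346); and Psmd5 without extension (0.57). Psmd13 turned without extension (0.0185) and with the nearest gene end (0.0785). With libraries left out, Psmb6 ran from −0.43 to 0.0866, Psme3ip1 from −0.21 to 0.26, Psmb1 from −0.0840 to 0.0502, Psmd5 from −0.65 to 0.36 and Psma3 from −0.97 to 0.36. Read depth is unknown, and with 2 libraries per group a rank that is missing from a shortened list may be a summit below its end.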
